A study of Homo sapiens with 7 samples.

Results

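The genes described here are 34 genes of mitochondrial and peroxisomal fatty acid oxidation, chosen by symbol from the 33117 genes in the deposited expression files: 22 of mitochondrial enzymes and carriers, 8 of peroxisomal enzymes, and 4 (CRAT, ECI2, ACAD11 and CPT1C) whose products work in both compartments or elsewhere. RNA sequencing was done on 769-P cells, a human line established from a clear cell carcinoma of the kidney, with 2 libraries of Lat-M2, 2 libraries of Lat-M1 and 3 libraries of PA. Lat-M stands for latent metastatic cells per the title of the series, and the labels expand neither PA nor the first Lat-M number, so Lat-M1 and Lat-M2 are named by that number alone. No treatment or allele is given for any group, and how the Lat-M cells were obtained, or whether a group is 1 clone, is not given in the sources used here. Each of the 34 symbols stood under 1 identifier.

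Fatty acids enter oxidation as acyl-CoA. Long chains cross into mitochondria as carnitine esters: CPT1 makes the ester at the outer membrane, the carrier SLC25A20 exchanges it for free carnitine, and CPT2 restores the acyl-CoA inside. Each turn of the spiral then runs through an acyl-CoA dehydrogenase, a hydratase, a hydroxyacyl-CoA dehydrogenase and a thiolase, and the electrons of the first step pass through the flavoproteins ETFA, ETFB and ETFDH to ubiquinone. Peroxisomes run a parallel spiral, begun by acyl-CoA oxidases, on very long and branched chains. Proximal tubule cells of the kidney rely on this oxidation for energy, and clear cell carcinomas are known for lipid droplets.

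The stretch before the transcription start is printed for 5 members whose levels are described below: SLC25A20 and ACAA2, which take part in entry and in the last step; ACADVL, which starts the spiral on long chains; ACOX3, a peroxisomal oxidase; and HADHB, which faces its partner HADHA. The sequences are the 250 bases upstream of a RefSeq start on build GRCh38.p14, on the gene's strand, and the submitters' own build was hg19. They lie at chr3:48898883-48899132 (SLC25A20, minus strand), chr18:49813534-49813783 (ACAA2, minus strand), chr17:7219688-7219937 (ACADVL, plus strand), chr4:8440724-8440973 (ACOX3, minus strand) and chr2:26244689-26244938 (HADHB, plus strand). In ACADVL the capitals mark ACGTG, the core motif of hypoxia-inducible factors. In HADHB they mark the 194 bases that also lie in the upstream window of HADHA, whose start is 306 bases away on the other strand.
SLC25A20: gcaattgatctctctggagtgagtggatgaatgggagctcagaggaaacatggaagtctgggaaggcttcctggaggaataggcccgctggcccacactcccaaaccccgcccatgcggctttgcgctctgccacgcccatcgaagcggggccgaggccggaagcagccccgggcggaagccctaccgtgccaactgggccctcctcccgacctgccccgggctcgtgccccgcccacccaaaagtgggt
ACAA2: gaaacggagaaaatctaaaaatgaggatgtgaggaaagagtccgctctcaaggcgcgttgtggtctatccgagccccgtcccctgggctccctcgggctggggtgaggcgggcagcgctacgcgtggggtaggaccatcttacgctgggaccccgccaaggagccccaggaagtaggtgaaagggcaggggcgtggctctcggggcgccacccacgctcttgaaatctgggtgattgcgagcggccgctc
ACADVL: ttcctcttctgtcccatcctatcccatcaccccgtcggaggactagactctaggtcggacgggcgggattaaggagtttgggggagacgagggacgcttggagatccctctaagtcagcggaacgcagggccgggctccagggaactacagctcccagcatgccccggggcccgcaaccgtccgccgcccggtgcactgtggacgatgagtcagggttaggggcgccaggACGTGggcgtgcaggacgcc
ACOX3: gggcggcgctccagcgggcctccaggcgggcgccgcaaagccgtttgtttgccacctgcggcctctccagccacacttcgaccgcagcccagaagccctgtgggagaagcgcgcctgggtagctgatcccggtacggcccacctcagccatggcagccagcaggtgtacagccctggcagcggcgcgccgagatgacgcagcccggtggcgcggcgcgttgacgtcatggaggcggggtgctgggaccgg
HADHB: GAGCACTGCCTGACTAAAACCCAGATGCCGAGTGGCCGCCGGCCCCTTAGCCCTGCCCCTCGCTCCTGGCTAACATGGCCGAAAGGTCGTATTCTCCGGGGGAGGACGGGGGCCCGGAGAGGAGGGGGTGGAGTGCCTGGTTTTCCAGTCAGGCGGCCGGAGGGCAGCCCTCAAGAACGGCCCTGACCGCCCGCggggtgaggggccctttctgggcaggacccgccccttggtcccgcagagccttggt

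Of the 34 members, 26 had an entry among the RefSeq starts, with 35 windows in all. ACGTG, searched on both strands, stood in 7 of the 35 windows, those of ACAD9, ACADL, ACADVL, ACAT1, CPT1C, ETFB and SCP2, against 18.5% of the 35116 windows of all genes. The estrogen-related receptor element TNAAGGTCA was in 0 of the 35 windows (0.854% of all windows), the NRF1 element in 0 (1.03% of all) and the PPAR and RXR direct repeat in 0 (0.0171% of all), each searched on both strands. None of these 4 motifs overlapped another in the members, since ACGTG was the only one found.

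Levels are in TPM, a share of the transcripts of a library that is corrected for transcript length and sums to 1000000. TPM keeps no read total, so depth and counting error are unknown, and whether the libraries came from separate cultures is not stated, so a p-value measures only the spread between these libraries. Differences are log2 fold changes of TPM + 1 with standard errors, tested with limma over the 16724 genes whose mean reached 1 TPM and called at a Benjamini-Hochberg adjusted p under 0.05. TPM are shares of a library, and 4 structural RNAs (RN7SL1, RN7SL2, RN7SK and RMRP) held 22.9% to 27.7% of Lat-M2, 18.6% to 21.9% of Lat-M1 and 29.5% to 31.8% of PA libraries. The median log2 difference of all genes tested was 0.14 in Lat-M2 against PA, 0.16 in Lat-M1 against PA and -0.01 in Lat-M2 against Lat-M1, and it was 0.00, 0.00 and 0.01 once the libraries had been scaled to a common median ratio. Calls are therefore given on both scales, and a call said to hold on both passed the test in the same direction on each. PA 1 stood apart from the other PA libraries with base composition (Spearman's rho -0.42 between its difference and gene GC content across 15750 genes, which are not independent replicates). Of the 8 kidney and carcinoma markers examined, 6 averaged at least 1 TPM, PAX8 among them, while CA9 stayed between 0 and 0.156 TPM.

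Of the 34 members, 31 averaged at least 1 TPM and were tested, each with a mean of at least 1.52 TPM in every group. ACADL, the long-chain acyl-CoA dehydrogenase, had 0.129 to 0.425 TPM over the 7 libraries. CPT1C, a CPT1 of neurons, had 0 to 0.200 TPM. ACOX2, the oxidase of bile acid side chains, was listed at 0 in 6 libraries and had 0.0461 TPM in PA 3. Their relatives ACADVL, CPT1A and ACOX3 were among those tested. ECHS1, HADHA, ACADVL, ACADM, HADHB, DECR1 and ECI2 had the highest levels in each group, although ETFA stood among them in Lat-M1. Summed over all 34 members, the level was 1232.7 ± 93.5 TPM in Lat-M2, 1145.6 ± 40.1 TPM in Lat-M1 and 1181.2 ± 14.1 TPM in PA (SD, n = 2, 2 and 3). The sums of the 2 Lat-M2 libraries, 1298.8 and 1166.6 TPM, spanned those of PA.

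Lat-M1 cells had lower levels of many members than PA cells. The tested members of the carnitine shuttle, the dehydrogenases ACADVL and ACADM and the thiolases ACAA2, ACAT1 and ACAA1 were among those that fell. ACOX3 and ECI2 rose. In Lat-M1 against PA, 5 of the 31 tested members rose and 15 fell, where 33.2% of all genes tested rose and 11.6% fell. After scaling, 4 members rose and 20 fell, against 24.0% and 23.0% of all genes, and 19 calls held on both scales. The median member was at -0.26 (-0.41 scaled) and the median gene at 0.16 (0.00 scaled). Mitochondrial members accounted for 2 of the rises and 11 of the falls among 21 tested (2 and 15 scaled), and peroxisomal members for 2 rises and 3 falls among 7 (1 and 4 scaled). Leaving out either Lat-M1 library lowered the number of members called lower, and also that of all genes tested. With 1 Lat-M1 library left, the spread comes from the other groups.

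Markers of other cell types moved with the groups in single genes of their lists. Of the leukocyte list, 1 of 4 listed genes, CD68, averaged at least 1 TPM, and the list summed to 39.7 to 42.1 TPM in Lat-M2, 14.3 to 15.5 TPM in Lat-M1 and 45.6 to 48.3 TPM in PA, with PTPRC at 0 in 6 of 7 libraries. Of the hepatocyte list, 1 of 4, SERPINA1, did so, and the sum was 12.8 to 13.9 TPM in Lat-M2, 12.3 to 12.8 TPM in Lat-M1 and 25.5 to 25.8 TPM in PA, with ALB at no more than 0.0516 TPM. Of the adipocyte list, 1 of 4, ADIPOR2, did so, and the sum was 84.2 to 99.5 TPM in Lat-M2, 108.4 to 109.8 TPM in Lat-M1 and 74.4 to 75.8 TPM in PA, with LPL at 0 in 6 of 7 libraries. Of the fibroblast list, 1 of 6, COL1A1, did so, and the sum was 3.10 to 4.10 TPM in Lat-M2, 20.0 to 21.7 TPM in Lat-M1 and 1.41 to 1.74 TPM in PA, with DCN at 0 in 5 of 7 libraries. Markers of endothelium, erythroid cells and muscle summed to at most 0.0911 TPM in any library. The part of these genes in the results was not tested. In such bulk samples, fewer cells with a gene and less of its RNA per cell cannot be told apart.

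In Lat-M2 the highest rises over PA were in ACAA2, DECR2 and CPT1A. In Lat-M2 against PA, 6 members rose (CPT1A, ACAD9, ACAD10, ACAA2, ETFB and DECR2) and 1 fell (ECI2), where 12.7% of all genes rose and 2.24% fell. After scaling, 2 rose and 7 fell, against 7.47% and 8.41% of all genes. The 3 calls that held on both scales were those of CPT1A, ACAA2 and ECI2. The median member was at 0.15 (0.00 scaled), beside 0.14 (0.00 scaled) for all genes. Single libraries decided much of this count, for members and for all genes alike. Without PA 3, 1 member rose, beside 1058 of the 16724 genes tested. Fewer members and fewer of all genes rose without Lat-M2 1, and more of both without Lat-M2 2. Both sets of fold changes use the same PA libraries, and the Lat-M groups are set against each other only in their direct comparison.

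**Figure D1:**
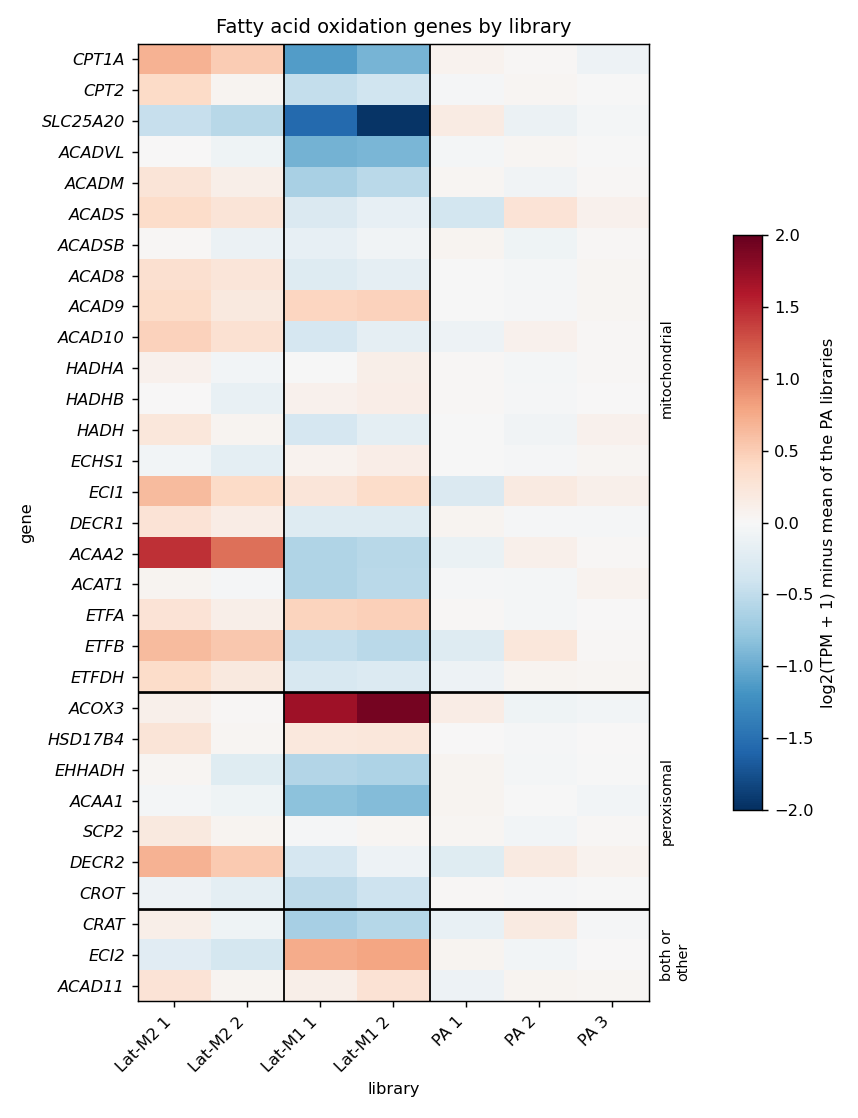
Levels of the 31 tested members (rows, by compartment) in each library (columns), as log2(TPM + 1) minus the mean of the 3 PA libraries. Most mitochondrial rows are blue in both Lat-M1 libraries, ACOX3 and ECI2 are red there, and ACAA2 is the deepest red of the Lat-M2 libraries.

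**Figure D2:**
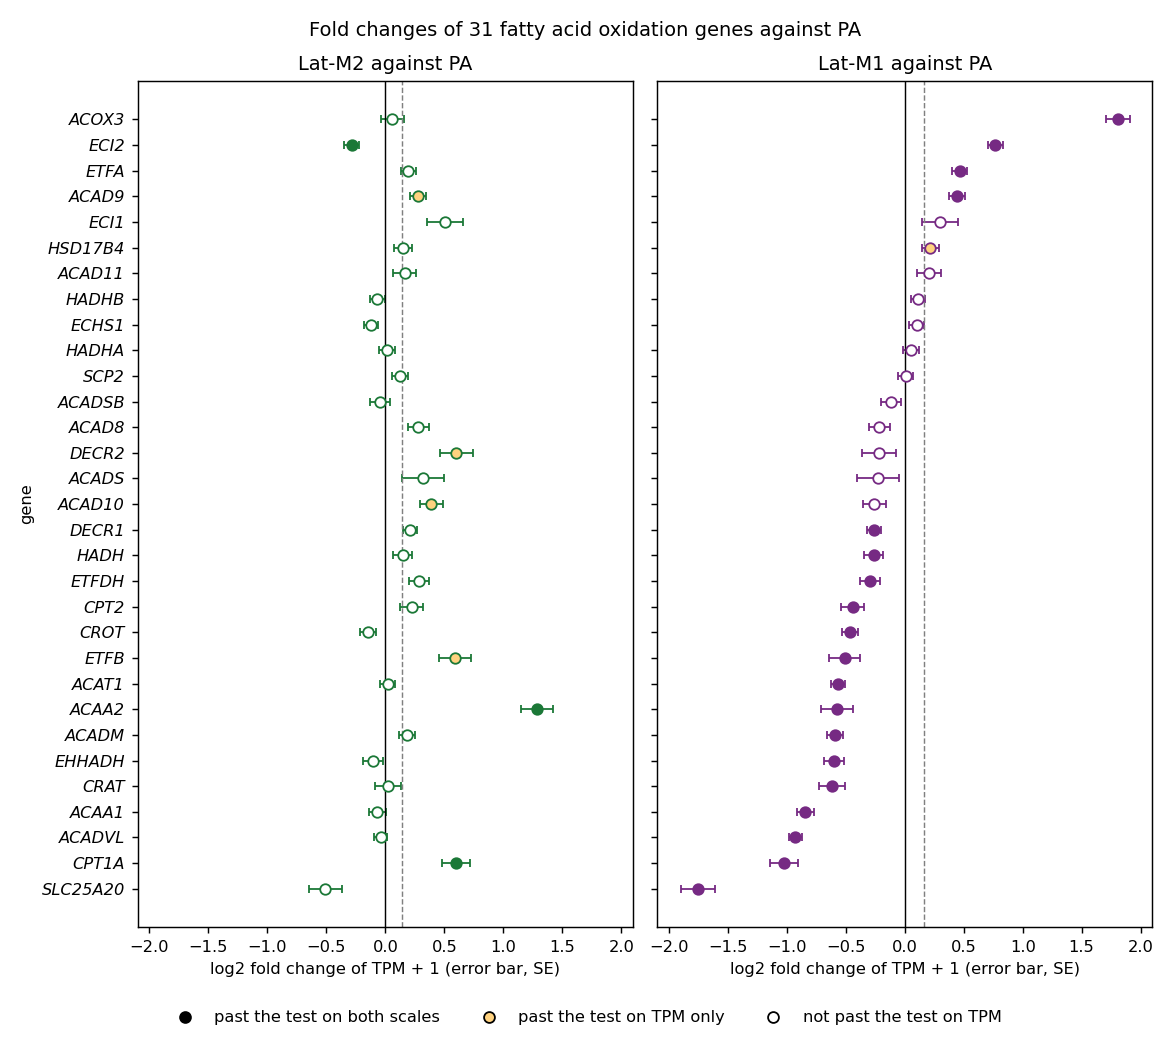
Log2 fold changes of TPM + 1 with standard errors for the 31 tested members in Lat-M2 against PA (left) and Lat-M1 against PA (right), both against the same PA libraries. Filled points passed the test on TPM and after scaling, yellow points on TPM alone, open points did not pass on TPM, and the dashed line is the median of all genes tested (0.14 and 0.16); in Lat-M1 the members run between -1.75 for SLC25A20 and 1.81 for ACOX3.

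All 3 tested members of the carnitine shuttle fell in Lat-M1 on both scales. CPT1B, the muscle form of CPT1 and not a member, did not fall there (0.31 ± 0.073, adjusted p = 0.0115, called higher on TPM alone). Its level exceeded that of CPT1A in every library, with CPT1B over CPT1A at 11.3 and 10.2 in Lat-M1. CPT1A, the liver type of the CPT1 enzymes that set the pace of entry, had 7.27 and 6.23 TPM in Lat-M2, 1.36 and 1.67 TPM in Lat-M1, and 4.35, 4.20 and 3.76 TPM in PA. The 3 groups did not overlap, with Lat-M2 highest and Lat-M1 lowest. CPT1A rose in Lat-M2 against PA (0.60 ± 0.12, adjusted p = 0.0201) and fell in Lat-M1 against PA (-1.02 ± 0.12, adjusted p = 0.000455), both on either scale. Its rise in Lat-M2 lost the call without PA 2, PA 3 or Lat-M2 1 (adjusted p 0.0536, 0.0566 and 0.132), while the fall in Lat-M1 held whichever library was left out.

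SLC25A20, the carnitine-acylcarnitine carrier of the inner membrane, had 7.27 and 6.79 TPM in Lat-M2, 2.91 and 1.93 TPM in Lat-M1, and 11.7, 9.51 and 10.1 TPM in PA. The groups again did not overlap, but here PA was highest. The fall in Lat-M1 (-1.75 ± 0.14, adjusted p = 8.5e-05) was the steepest of any member. In Lat-M2 the difference from PA was -0.51 ± 0.14 (adjusted p = 0.0541), and it passed the test as lower after scaling, with a minimum mean of 5 TPM, and when 1 of the Lat-M1 libraries was left out (adjusted p 0.0416 without Lat-M1 1 and 0.0408 without Lat-M1 2). CPT2, the inner-membrane transferase, had 20.9 and 16.5 TPM in Lat-M2, 11.0 and 11.7 TPM in Lat-M1, and 15.4, 16.2 and 15.8 TPM in PA. CPT2 fell in Lat-M1 (-0.44 ± 0.098, adjusted p = 0.00888; 0.0597 without Lat-M1 1), and in Lat-M2 it differed from PA by 0.22 ± 0.098 (adjusted p = 0.163; 0.0249 without Lat-M2 2).

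**Figure D3:**
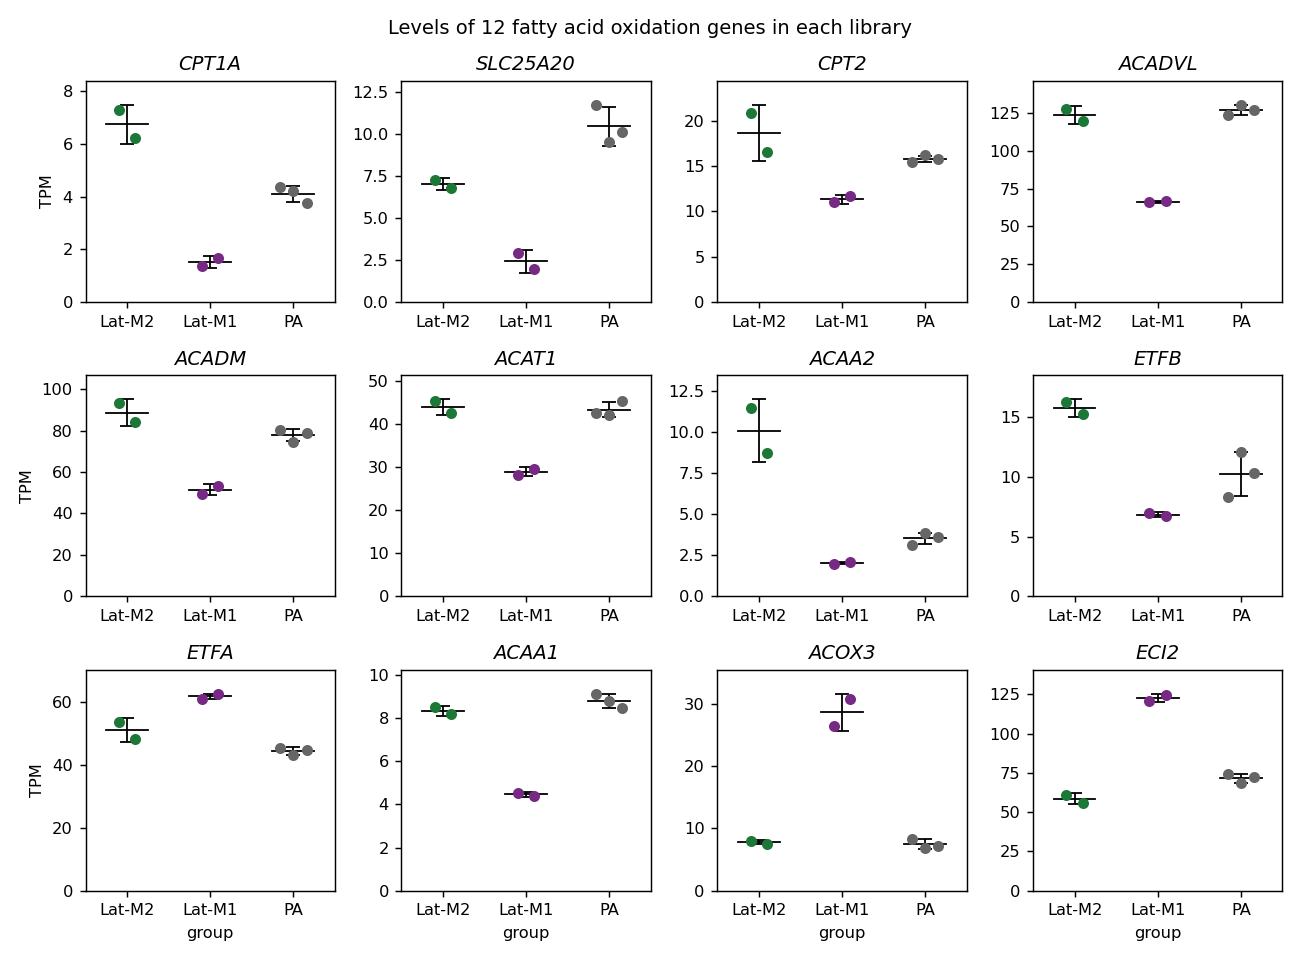
TPM of 12 members in each library of Lat-M2, Lat-M1 and PA (points), with the group mean and SD (bars; n = 2, 2 and 3). Lat-M1 lies lowest in 9 of the 12 panels, while in ETFA, ACOX3 and ECI2 it lies highest.

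Among the acyl-CoA dehydrogenases, which open each turn of the spiral, the enzymes of long and medium chains fell in Lat-M1. ACADVL, the very-long-chain dehydrogenase of the inner membrane, had 127.9 and 119.5 TPM in Lat-M2, 65.8 and 66.8 TPM in Lat-M1, and 124.0, 130.5 and 127.0 TPM in PA. Lat-M1 was below every other library and Lat-M2 overlapped PA. ACADVL fell in Lat-M1 (-0.93 ± 0.055, adjusted p = 1.85e-05), and its difference in Lat-M2 was -0.04 ± 0.055 (95% interval -0.17 to 0.09), although after scaling ACADVL passed the test as lower there too (-0.19). ACADM, the medium-chain dehydrogenase whose loss is the most common inherited defect of the pathway, had 93.3 and 84.1 TPM in Lat-M2, 49.5 and 53.2 TPM in Lat-M1, and 80.1, 74.4 and 78.9 TPM in PA. Its fall in Lat-M1 (-0.59 ± 0.069, adjusted p = 0.000493) held on both scales and without any 1 library. In Lat-M2 its difference from PA was 0.19 ± 0.069 (adjusted p = 0.112).

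ACAD9, which works chiefly as an assembly factor of respiratory complex I, went the other way. It had 32.6 and 28.6 TPM in Lat-M2, 34.03 and 34.8 TPM in Lat-M1, and 24.8, 24.5 and 25.8 TPM in PA, so both Lat-M groups lay above PA without overlap. It rose in Lat-M1 (0.45 ± 0.068, adjusted p = 0.00169) on both scales. Its rise in Lat-M2 (0.28 ± 0.068, adjusted p = 0.038) was lost after scaling and without any 1 library other than Lat-M2 2 (adjusted p 0.0702 to 0.139). ACAD10, a dehydrogenase of uncertain substrate, had 10.0 and 8.89 TPM in Lat-M2, 5.31 and 6.05 TPM in Lat-M1, and 6.41, 7.48 and 7.06 TPM in PA. It rose in Lat-M2 (0.39 ± 0.099, adjusted p = 0.0416), a call lost after scaling and without any 1 library (0.0509 to 0.217), and after scaling it passed as lower in Lat-M1 (-0.41). 

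The short-chain dehydrogenase ACADS had 13.6 and 12.5 TPM in Lat-M2, 8.21 and 9.06 TPM in Lat-M1, and 7.80, 12.6 and 11.0 TPM in PA. PA 1 was the low one of its group, at 0.660 of the mean of PA 2 and PA 3. ACADS did not pass the test against PA in either Lat-M group with all libraries (Lat-M1 -0.23 ± 0.18, adjusted p = 0.337), and without PA 1 it fell in Lat-M1 (-0.41, adjusted p = 0.0157). ACADSB and ACAD8, which serve isoleucine and valine breakdown, and ACAD11, which also serves hydroxylated chains, passed the test in neither Lat-M group on TPM, although after scaling ACADSB (-0.28) and ACAD8 (-0.36) passed it as lower in Lat-M1. Their differences on TPM lay between -0.22 ± 0.089 for ACAD8 in Lat-M1 and 0.28 ± 0.089 for ACAD8 in Lat-M2.

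The central enzymes of the mitochondrial spiral differed little between groups on TPM. HADHA and HADHB are the subunits of the trifunctional protein, which carries out the later steps on long chains. HADHA had 160.6 and 144.9 TPM in Lat-M2, 149.9 and 163.2 TPM in Lat-M1, and 153.3, 146.1 and 152.9 TPM in PA, with every group overlapping. Its difference from PA was 0.02 ± 0.068 in Lat-M2 (95% interval -0.14 to 0.18) and 0.05 ± 0.068 in Lat-M1 (-0.11 to 0.21). HADHB had 79.6 and 71.7 TPM in Lat-M2, 84.5 and 87.3 TPM in Lat-M1, and 80.3, 77.6 and 79.8 TPM in PA. Its difference was -0.07 ± 0.061 in Lat-M2 (95% interval -0.21 to 0.08) and 0.11 ± 0.061 in Lat-M1 (-0.03 to 0.26). After scaling, HADHA passed the test as lower in Lat-M1 (-0.12) and HADHB as lower in Lat-M2 (-0.22), both small. ECHS1, the short-chain hydratase and the most abundant member, had 168.1 and 152.2 TPM in Lat-M2, 182.3 and 191.4 TPM in Lat-M1, and 172.2, 170.9 and 179.3 TPM in PA. Its Lat-M1 libraries were above those of PA and its Lat-M2 libraries below, and neither difference from PA passed the test on TPM (adjusted p = 0.229 and 0.219), although Lat-M2 passed it as lower after scaling (-0.27).

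HADH, the short-chain hydroxyacyl-CoA dehydrogenase, had 46.7 and 41.4 TPM in Lat-M2, 31.3 and 34.7 TPM in Lat-M1, and 39.3, 37.9 and 42.0 TPM in PA. It fell in Lat-M1 (-0.26 ± 0.08, adjusted p = 0.0333), but the call was lost without PA 1, PA 3, Lat-M1 1 or Lat-M1 2 (adjusted p 0.0538 to 0.202). DECR1, the mitochondrial dienoyl-CoA reductase needed for polyunsaturated chains, had 81.1 and 74.3 TPM in Lat-M2, 56.1 and 55.7 TPM in Lat-M1, and 69.7, 66.0 and 65.8 TPM in PA. DECR1 fell in Lat-M1 (-0.26 ± 0.06, adjusted p = 0.0107; 0.0576 without Lat-M1 1 and 0.0742 without Lat-M1 2) and differed from PA by 0.21 ± 0.06 in Lat-M2 (adjusted p = 0.06; 0.0284 without Lat-M2 2). 

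The isomerases, which move double bonds in unsaturated chains, parted from each other. ECI1, the mitochondrial isomerase, had 48.4 and 40.7 TPM in Lat-M2, 36.8 and 40.2 TPM in Lat-M1, and 25.3, 35.3 and 33.5 TPM in PA. All Lat-M libraries were above PA, where PA 1 was lowest at 0.734 of the mean of the other PA libraries, and neither difference passed the test (0.50 ± 0.15 in Lat-M2, adjusted p = 0.072; 0.30 ± 0.15 in Lat-M1, adjusted p = 0.156). ECI2, an isomerase with mitochondrial and peroxisomal forms, had 61.1 and 56.0 TPM in Lat-M2, 120.6 and 124.6 TPM in Lat-M1, and 74.2, 68.5 and 72.0 TPM in PA. Lat-M1 was far above and Lat-M2 below PA, with no overlap between any of the groups. ECI2 rose in Lat-M1 (0.77 ± 0.063, adjusted p = 8.77e-05) and fell in Lat-M2 (-0.29 ± 0.063, adjusted p = 0.0283), both on either scale. The fall in Lat-M2 lost its call without any 1 library other than PA 2 (adjusted p 0.0515 to 0.084), and the rise in Lat-M1 was kept without each of the 7 libraries.

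Thiolases close the turn by releasing acetyl-CoA. Beside HADHB, which did not pass the test on TPM, the mitochondrial thiolases ACAA2 and ACAT1 fell in Lat-M1, and ACAA2 rose in Lat-M2. ACAA2, which also acts on medium chains, had 11.4 and 8.73 TPM in Lat-M2, 1.99 and 2.07 TPM in Lat-M1, and 3.13, 3.84 and 3.59 TPM in PA. The 3 groups did not overlap, and the 2 Lat-M2 libraries differed between themselves by more than all PA libraries did. The rise in Lat-M2 (1.29 ± 0.13, adjusted p = 0.002) was the one member call in that comparison that held under each of the 15 alternatives in which it was tested (with a minimum mean of 5 TPM it was not), with adjusted p between 0.00192 and 0.0439. The fall in Lat-M1 (-0.57 ± 0.13, adjusted p = 0.0107) was lost without Lat-M1 1 or Lat-M1 2 (0.0566 and 0.0521). ACAT1, the acetoacetyl-CoA thiolase that also serves ketone bodies, had 45.2 and 42.6 TPM in Lat-M2, 28.2 and 29.6 TPM in Lat-M1, and 42.7, 42.0 and 45.3 TPM in PA. It fell in Lat-M1 (-0.57 ± 0.061, adjusted p = 0.000331) with no overlap and without any 1 library, while in Lat-M2 it was 0.02 ± 0.061 on TPM (95% interval -0.12 to 0.16) and passed as lower after scaling (-0.13).

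The electron transfer flavoprotein, a dimer of ETFA and ETFB, had subunits that moved apart in Lat-M1. ETFA had 53.8 and 48.4 TPM in Lat-M2, 61.2 and 62.5 TPM in Lat-M1, and 45.4, 43.2 and 44.8 TPM in PA. ETFB had 16.3 and 15.3 TPM in Lat-M2, 6.98 and 6.71 TPM in Lat-M1, and 8.36, 12.1 and 10.4 TPM in PA. In Lat-M1 the first was above and the second below every PA library. ETFA rose in Lat-M1 (0.47 ± 0.062, adjusted p = 0.000902) on both scales, and its difference in Lat-M2 was 0.19 ± 0.062 (adjusted p = 0.0773; 0.027 without Lat-M2 2). ETFB fell in Lat-M1 (-0.51 ± 0.13, adjusted p = 0.0179; 0.0666 without Lat-M1 1 and 0.098 without Lat-M1 2). ETFB rose in Lat-M2 (0.59 ± 0.13, adjusted p = 0.0303), but that call was lost after scaling and without PA 3 or any 1 Lat-M library (0.0559 to 0.167). ETFDH, which hands the electrons to ubiquinone, had 14.7 and 12.9 TPM in Lat-M2, 8.80 and 9.09 TPM in Lat-M1, and 10.3, 11.7 and 11.5 TPM in PA. It fell in Lat-M1 (-0.29 ± 0.085, adjusted p = 0.0268), a call lost without PA 2, PA 3, Lat-M1 1 or Lat-M1 2 (0.0756 to 0.123), and in Lat-M2 it was 0.28 ± 0.085 (adjusted p = 0.0655; 0.0482 without Lat-M2 2).

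The peroxisomal spiral changed unevenly in Lat-M1. ACOX3, the oxidase of branched chains, had 8.04 and 7.56 TPM in Lat-M2, 26.5 and 30.7 TPM in Lat-M1, and 8.34, 6.92 and 7.14 TPM in PA. Both Lat-M1 libraries were several times above all others, and Lat-M2 overlapped PA. The rise in Lat-M1 (1.81 ± 0.10, adjusted p = 1.41e-05) was the highest of any member and held under every alternative, while the difference in Lat-M2 was 0.06 ± 0.10 (95% interval -0.18 to 0.29). ACAA1, the peroxisomal thiolase at the end of the same spiral, had 8.49 and 8.17 TPM in Lat-M2, 4.54 and 4.37 TPM in Lat-M1, and 9.13, 8.77 and 8.46 TPM in PA. ACAA1 fell in Lat-M1 (-0.84 ± 0.074, adjusted p = 0.000122) and differed from PA by -0.07 ± 0.074 in Lat-M2 (95% interval -0.24 to 0.11). EHHADH, the bifunctional hydratase and dehydrogenase of straight chains, had 37.4 and 30.7 TPM in Lat-M2, 23.9 and 23.4 TPM in Lat-M1, and 37.8, 35.5 and 36.1 TPM in PA. It too fell in Lat-M1 (-0.60 ± 0.086, adjusted p = 0.00119), and in Lat-M2, where 1 library was within PA and 1 below, it was -0.10 ± 0.086 (95% interval -0.30 to 0.10).

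HSD17B4, the bifunctional enzyme that also takes branched chains, had 41.6 and 35.4 TPM in Lat-M2, 40.0 and 40.6 TPM in Lat-M1, and 34.9, 34.01 and 34.8 TPM in PA. Its rise in Lat-M1 (0.22 ± 0.074, adjusted p = 0.0473) was lost after scaling and without any 1 library of PA or Lat-M1 (adjusted p 0.0901 to 0.191). SCP2, a thiolase and sterol carrier, had 36.0 and 32.7 TPM in Lat-M2, 30.7 and 32.4 TPM in Lat-M1, and 32.3, 30.0 and 31.8 TPM in PA, with differences from PA of 0.13 ± 0.067 in Lat-M2 and 0.01 ± 0.067 in Lat-M1. After scaling SCP2 passed the test as lower in Lat-M1 (-0.17). DECR2, the peroxisomal dienoyl-CoA reductase, had 12.9 and 11.3 TPM in Lat-M2, 5.82 and 7.05 TPM in Lat-M1, and 6.28, 8.77 and 8.02 TPM in PA. Lat-M2 was above all other libraries and Lat-M1 overlapped PA, in which PA 1 was lowest at 0.747 of the mean of PA 2 and PA 3. DECR2 rose in Lat-M2 (0.60 ± 0.14, adjusted p = 0.035), a call lost after scaling and without any 1 library other than PA 2 (0.0502 to 0.197).

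The transferases that make short and medium acylcarnitines outside the shuttle fell in Lat-M1. CROT, which readies medium chains for export from peroxisomes, had 12.1 and 11.3 TPM in Lat-M2, 8.83 and 9.60 TPM in Lat-M1, and 13.4, 12.9 and 13.0 TPM in PA. CRAT, the acetyltransferase of mitochondria and peroxisomes, had 16.7 and 14.4 TPM in Lat-M2, 9.28 and 9.97 TPM in Lat-M1, and 13.6, 17.3 and 15.1 TPM in PA. In each the Lat-M1 libraries were below all PA libraries. CROT fell by 0.46 on the log2 scale in Lat-M1 (SE 0.069, adjusted p = 0.00145) and CRAT by 0.61 (SE 0.11, adjusted p = 0.00359), and both calls held on either scale and without any 1 library. In Lat-M2 the differences were -0.15 ± 0.069 for CROT (adjusted p = 0.177; lower after scaling) and 0.02 ± 0.11 for CRAT (95% interval -0.24 to 0.28).

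Ratios within a library do not move with its scale. HADHA over HADHB, subunits of 1 complex, was 2.02 ± 0.000864 in Lat-M2, 1.82 ± 0.0677 in Lat-M1 and 1.90 ± 0.0168 in PA (SD, n = 2, 2 and 3). Its groups did not overlap, with Lat-M2 highest and Lat-M1 lowest, although all libraries lay between 1.77 and 2.02. ETFA over ETFB was 3.30 and 3.17 in Lat-M2, 8.76 and 9.31 in Lat-M1, and 5.43, 3.58 and 4.32 in PA. HADHB over ACAA2, a thiolase of long chains beside one of shorter chains, was 6.96 and 8.22 in Lat-M2, 42.5 and 42.2 in Lat-M1, and 25.6, 20.2 and 22.2 in PA. The groups of ETFA over ETFB and of HADHB over ACAA2 were apart too, with Lat-M1 highest and Lat-M2 lowest. CPT2 over SLC25A20 was 2.87 and 2.44 in Lat-M2, 3.79 and 6.07 in Lat-M1, and 1.31, 1.70 and 1.56 in PA, so both Lat-M groups lay above PA. ACOX3 over ACAA1, the first and last enzymes of the peroxisomal spiral, was 0.946 and 0.925 in Lat-M2, 5.83 and 7.04 in Lat-M1, and 0.914, 0.790 and 0.845 in PA. ECI2 over ECI1 was 1.32 ± 0.0809 in Lat-M2, 3.19 ± 0.128 in Lat-M1 and 2.34 ± 0.526 in PA, again without overlap between the groups. These ratios were not tested.

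**Figure D4:**
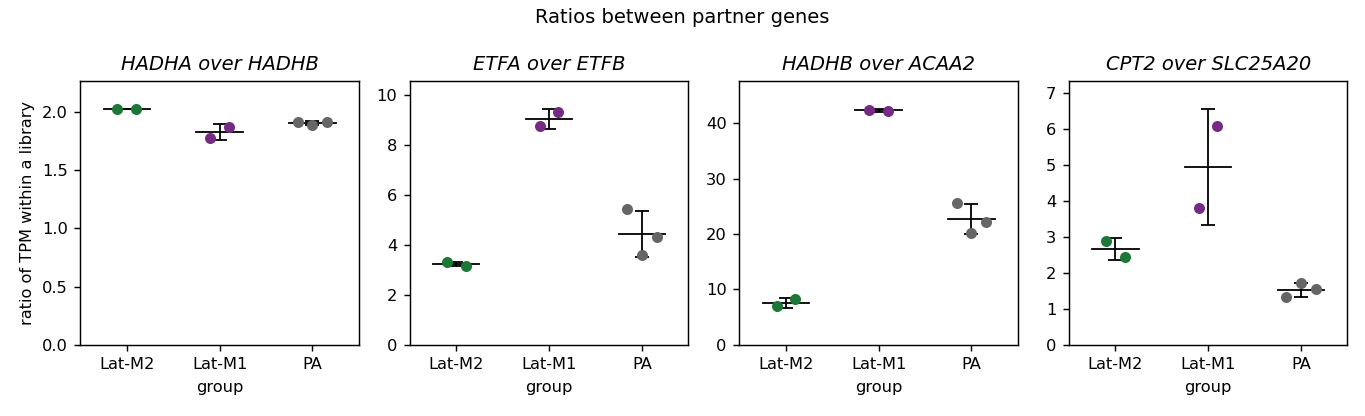
Ratios of TPM within each library for 4 pairs of members that act together or in sequence, in Lat-M2, Lat-M1 and PA (points), with the group mean and SD (bars; n = 2, 2 and 3). HADHA over HADHB stays between 1.77 and 2.02 in all libraries, while ETFA over ETFB and HADHB over ACAA2 are highest in Lat-M1 and lowest in Lat-M2.

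Set against each other, the Lat-M groups differed in most of the pathway. In Lat-M2 against Lat-M1, 18 members were higher and 4 lower (ECHS1, ETFA, ACOX3 and ECI2), where 16.0% of all genes were higher and 20.1% lower. After scaling 19 were higher and 6 lower, against 21.6% and 22.6% of all genes, and all 22 calls on TPM held on both scales. The median member was at 0.49 and the median gene at -0.01. ACAA2 (1.86 ± 0.15, adjusted p = 9.89e-05), CPT1A (1.62 ± 0.13, adjusted p = 0.000106), SLC25A20 (1.25 ± 0.16, adjusted p = 0.000919) and ETFB (1.10 ± 0.15, adjusted p = 0.0012) were more than 1 log2 unit higher in Lat-M2. ACOX3 (-1.75 ± 0.11, adjusted p = 3.47e-05) and ECI2 (-1.05 ± 0.069, adjusted p = 4.21e-05) were as far lower. Without PA 3, 18 members were higher and 3 lower, beside 2364 and 2977 of the 16724 genes tested. Leaving out a Lat-M library, which leaves 1 in its group, also changed the counts of members and of all genes. HADH lost its call without Lat-M1 1 (adjusted p = 0.0713), CROT without Lat-M1 1 or Lat-M2 1 (0.101 and 0.0616), ETFA without Lat-M1 1 or Lat-M1 2 (0.0742 and 0.102), and ECHS1 without any library but Lat-M2 1 (0.063 to 0.194).

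With the 4 Lat-M libraries taken as 1 group against PA, limma called 0 of the 31 members higher and 0 lower, where 2.51% of all genes were higher and 0.389% lower (0.682% and 0.568% after scaling, again with 0 members). At an unadjusted p under 0.05 there were 6 members on TPM and 10 after scaling, beside 4264 and 3089 of the 16724 genes tested. The standard errors were wide where the Lat-M pairs lay apart, for example 0.36 ± 0.54 for ACAA2 (95% interval -0.92 to 1.63) and 0.93 ± 0.50 for ACOX3 (-0.25 to 2.12). SLC25A20 and CROT were lower in all 4 Lat-M libraries than in every PA library (-1.13 ± 0.38, adjusted p = 0.127 and -0.31 ± 0.11, adjusted p = 0.155), and ACAD9, ECI1, ETFA and HSD17B4 were higher in all 4. That made 4 of the 31 members higher and 2 lower, where 4231 of the 16724 genes tested were higher in all 4 Lat-M libraries than in every PA library and 531 lower. Whether the members differ from all genes in this was not tested. ACAD9 came nearest to the threshold (0.36 ± 0.082, adjusted p = 0.0633). Without Lat-M2 2, ACAD9, ETFA and HSD17B4 passed it (adjusted p 0.026, 0.0339 and 0.0492). Of the 16724 genes tested, 1740 were then called higher, beside 420 with all libraries, so nothing is read from these 3 calls.

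Genes around the spiral were taken from 11 lists of 142 genes. Their counts stand beside 33.2% of all genes tested higher and 11.6% lower in Lat-M1 (24.0% and 23.0% scaled), and 12.7% and 2.24% in Lat-M2 (7.47% and 8.41% scaled). At an unadjusted p under 0.05, 5515 of the 16724 genes tested differed in Lat-M2 against PA. With 3 to 21 genes tested in a list, many of the counts lie near these shares, and nothing is read from a count alone. Among regulators and targets of the PPAR receptors, 4 of 14 tested rose and 5 fell in Lat-M1 (3 and 7 scaled), and 2 rose and 1 fell in Lat-M2 (2 and 3 scaled). PPARGC1A, a coactivator of nuclear receptors that drives mitochondrial genes, had 22.6 and 21.7 TPM in Lat-M2, 1.33 and 1.24 TPM in Lat-M1, and 19.7, 19.2 and 21.3 TPM in PA. It fell in Lat-M1 (-3.20 ± 0.073, adjusted p = 2.05e-07) and its Lat-M2 libraries were above all PA libraries (0.13 ± 0.073, adjusted p = 0.244). PPARD, a fatty acid receptor, had 4.79 and 4.45 TPM in Lat-M2, 32.5 and 37.1 TPM in Lat-M1, and 2.67, 2.32 and 2.65 TPM in PA and rose in Lat-M1 (3.33 ± 0.094, adjusted p = 5.75e-07) and Lat-M2 (0.66 ± 0.094, adjusted p = 0.00773; 0.0622 without Lat-M2 1). PPARG, its relative known from fat cells, fell in Lat-M1 (-0.86 ± 0.066, adjusted p = 6.46e-05). PLIN2, a coat protein of lipid droplets, had 17.0 and 16.1 TPM in Lat-M2, 1.57 and 1.21 TPM in Lat-M1, and 26.6, 28.0 and 27.1 TPM in PA and fell in Lat-M1 (-3.57 ± 0.083, adjusted p = 2.19e-07) and Lat-M2 (-0.69 ± 0.083, adjusted p = 0.00408). PPARGC1B, a second coactivator, rose in Lat-M2 (0.50 ± 0.10, adjusted p = 0.0216) and in Lat-M1 (0.65 ± 0.10, adjusted p = 0.00186). Its call in Lat-M2 was lost without PA 1, PA 2, PA 3 or Lat-M2 1 (0.0585, 0.0617, 0.0504 and 0.123).

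Upstream of the shuttle, 4 of 8 tested genes of fatty acid uptake and activation rose and 1 fell in Lat-M1 (3 and 2 scaled), and 1 rose in Lat-M2 on either scale. Of all genes tested, 33.2% rose and 11.6% fell in Lat-M1 (24.0% and 23.0% scaled), and 12.7% rose in Lat-M2 (7.47% scaled). At an unadjusted p under 0.05, 5515 of the 16724 genes tested differed in Lat-M2. ACSL1, an acyl-CoA synthetase, rose in Lat-M2 (0.84 ± 0.076, adjusted p = 0.00111) and Lat-M1 (0.87 ± 0.076, adjusted p = 0.00012), with 17.9 ± 1.22 TPM in Lat-M2, 18.3 ± 0.488 TPM in Lat-M1 and 9.55 ± 0.594 TPM in PA (SD, n = 2, 2 and 3). SLC27A2, a very-long-chain acyl-CoA synthetase, fell in Lat-M1 (-1.22 ± 0.11, adjusted p = 0.000156) and had 5.24 ± 0.738 TPM in Lat-M2, 1.65 ± 0.0459 TPM in Lat-M1 and 5.18 ± 0.333 TPM in PA. Of the 13 tested genes that control entry, such as AMP kinase subunits and malonyl-CoA enzymes, 4 rose and 3 fell in Lat-M1 (1 and 7 scaled), and 4 rose and 0 fell in Lat-M2 (3 and 1 scaled; 6 at an unadjusted p under 0.05). PRKAB2, an AMP kinase subunit, rose in Lat-M1 (1.02 ± 0.079, adjusted p = 6.8e-05), and PRKAA2, its catalytic partner, fell there (-0.41 ± 0.076, adjusted p = 0.00396). PRKAA2 rose in Lat-M2 (0.36 ± 0.076, adjusted p = 0.0239), a call lost without PA 1, PA 2 or Lat-M2 1 (0.0585, 0.0684 and 0.126). CPT1B, the muscle form of CPT1, rose in Lat-M1 on TPM alone (0.31 ± 0.073, adjusted p = 0.0115; 0.106 without Lat-M1 2) and had 11.7 ± 0.708 TPM in Lat-M2, 16.2 ± 1.22 TPM in Lat-M1 and 12.9 ± 0.285 TPM in PA, so that it exceeded CPT1A in every library. The ratio of CPT1B over CPT1A was 1.54 and 1.95 in Lat-M2, 11.3 and 10.2 in Lat-M1, and 2.95, 3.14 and 3.35 in PA.

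Beside the peroxisomal spiral, 3 of 14 tested genes of other peroxisomal lipid enzymes rose and 4 fell in Lat-M1 (3 and 9 scaled), and 2 rose and 0 fell in Lat-M2 (2 and 5 scaled; 7 at an unadjusted p under 0.05). AMACR, the racemase that readies branched chains for oxidation, fell in Lat-M1 (-1.75 ± 0.06, adjusted p = 1.44e-06), with 62.5 and 57.9 TPM in Lat-M2, 14.5 and 15.0 TPM in Lat-M1, and 50.4, 53.7 and 51.6 TPM in PA. AGPS, of ether lipid synthesis, and HACL1, of the alpha oxidation of branched chains, fell there too (-0.70 ± 0.066, adjusted p = 0.000173 and -0.53 ± 0.068, adjusted p = 0.000718). Of 21 tested peroxins and peroxisomal transporters 7 rose and 2 fell in Lat-M1 (3 and 7 scaled), and 3 rose and 0 fell in Lat-M2 (0 and 2 scaled, and 9 at an unadjusted p under 0.05). The counts of both lists in Lat-M1 stand beside 33.2% of all genes higher and 11.6% lower (24.0% and 23.0% scaled). Those at an unadjusted p under 0.05 in Lat-M2 stand beside 5515 of the 16724 genes tested. ABCD3, a peroxisomal importer of acyl-CoA, fell in Lat-M1 (-0.54 ± 0.084, adjusted p = 0.00186).

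Of 5 tested ketone body genes, 2 rose and 2 fell in Lat-M1 (2 and 3 scaled). Beside this list and the next, 33.2% of all genes rose and 11.6% fell in Lat-M1 (24.0% and 23.0% scaled). In Lat-M2, 5515 of the 16724 genes tested differed at an unadjusted p under 0.05. OXCT1, which returns ketone bodies to acetyl-CoA, rose there (1.96 ± 0.10, adjusted p = 1.18e-05), with 3.19 and 2.55 TPM in Lat-M2, 15.8 and 17.3 TPM in Lat-M1, and 3.55, 3.32 and 3.69 TPM in PA. BDH2, a hydroxybutyrate dehydrogenase, fell (-0.64 ± 0.073, adjusted p = 0.000426). In Lat-M2 limma called 0 of the 5 on TPM (0 and 1 scaled; 1 at an unadjusted p under 0.05). Genes of branched-chain and odd-chain breakdown had 5 of 18 higher and 4 lower in Lat-M1 (4 and 6 scaled) and 2 higher and 0 lower in Lat-M2 (1 and 0 scaled; 5 at an unadjusted p under 0.05), BCAT1 being higher in both (0.55 ± 0.086, adjusted p = 0.0112 in Lat-M2, 0.0629 without Lat-M2 1, and 0.83 ± 0.086, adjusted p = 0.000279 in Lat-M1).

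The remaining lists were small. Their counts at an unadjusted p under 0.05 in Lat-M2 stand beside 5515 of the 16724 genes tested. Thioesterases and acyl-CoA binding proteins had 1 of 6 higher and 2 lower in Lat-M1 (1 and 3 scaled) and 0 and 1 in Lat-M2 (0 and 2 scaled). Lipid droplet and lipolysis genes had 1 of 6 higher and 2 lower in Lat-M1 (0 and 3 scaled) and 0 and 0 in Lat-M2 by limma (0 and 2 scaled; 1 at an unadjusted p under 0.05), with MGLL, a monoglyceride lipase, falling in Lat-M1 (-0.59 ± 0.062, adjusted p = 0.0003). Flavin supply genes had 2 of 5 higher and 1 lower in Lat-M1 (1 and 2 scaled) and 1 and 0 in Lat-M2 (0 and 0 scaled; 2 at an unadjusted p under 0.05). Of the 3 complex I assembly partners of ACAD9, NDUFAF1 rose in Lat-M1 (0.71 ± 0.089, adjusted p = 0.00069), TMEM126B fell there (-0.26 ± 0.052, adjusted p = 0.00606; 0.0564 without Lat-M1 1) and ECSIT rose in Lat-M2 (0.46 ± 0.089, adjusted p = 0.0195; 0.0982 without Lat-M2 1). After scaling, PPARG (-0.27), AGPS (-0.35), HACL1 (-0.21), MGLL (-0.18) and OXCT1 (-0.35) also passed the test as lower in Lat-M2, and ECSIT (-0.28) as lower in Lat-M1. List medians lay between -0.06 and 0.28 in Lat-M2 and between -0.13 and 0.24 in Lat-M1, beside 0.14 and 0.16 for all genes.

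**Figure D5:**
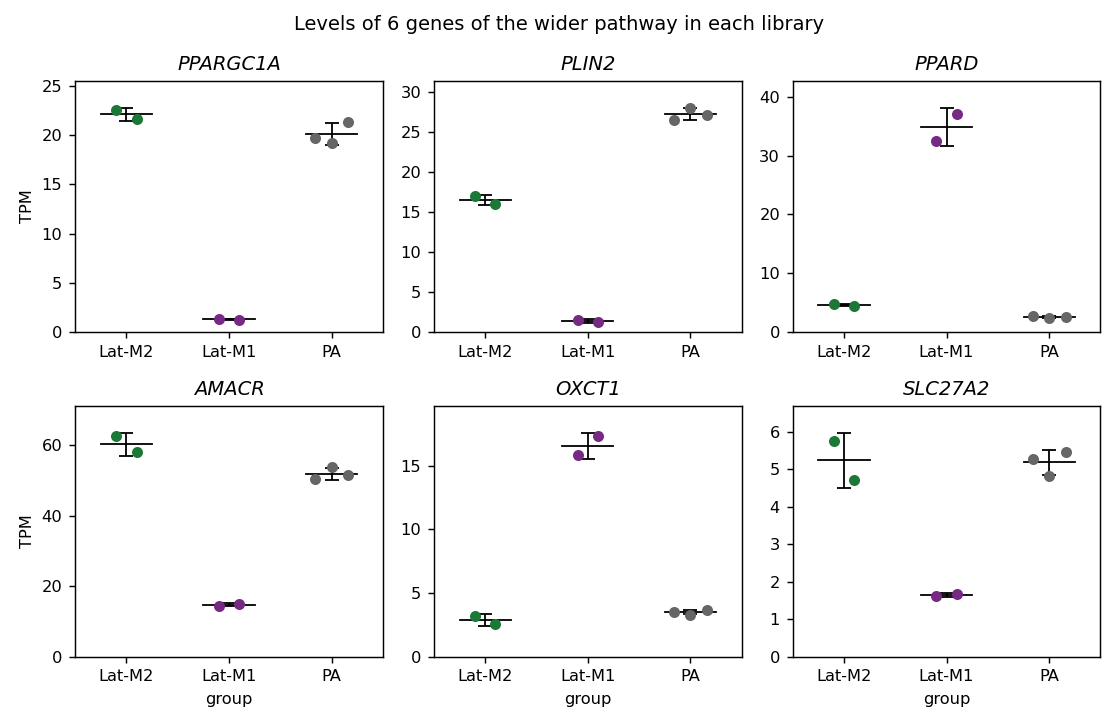
TPM of 6 genes of the wider pathway in each library of Lat-M2, Lat-M1 and PA (points), with the group mean and SD (bars; n = 2, 2 and 3). PPARGC1A, PLIN2, AMACR and SLC27A2 are lowest in Lat-M1, at means of 1.29, 1.39, 14.8 and 1.65 TPM, while PPARD and OXCT1 are highest there, at 34.8 and 16.6 TPM.

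Some members share exonic bases with another gene, and the counting is not stated to use strand. The overlap covered 27.1% of the exonic bases of ECI2 (C6orf201, mean of at most 0.0998 TPM in any group), 14.1% of DECR2 (NME4, 11.5 ± 0.283 TPM in Lat-M2, 9.84 ± 0.801 TPM in Lat-M1 and 9.29 ± 1.72 TPM in PA) and 10.9% of ETFDH (PPID, 82.6 ± 11.5, 104 ± 3.57 and 74.6 ± 2.85 TPM in the same order). Their part in the levels of these members was not tested.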

How the data were processed

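Per the labels' protocols, RNA came from an RNeasy extraction, and each library was built with a TruSeq RNA v2 or NEBNext Ultra kit, without a record of which. Per the submitters' processing notes, TopHat2 2.2.4 and hg19 were used. The quantifier and annotation are not given in the sources used here. The deposited files hold TPM per gene, as the authors made them: each library sums to 1000000, and smallest nonzero values decline with length of the transcript (rho -0.94 over 7767 genes whose mean was under 0.1 TPM). No counts can be had from TPM, so depth is unknown.

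log2(TPM + 1) of 16724 genes whose mean reached 1 TPM was fitted with limma 3.58.1 (R 4.3.3, statmod 1.5.0; trend and robust options), in 1 fit of 3 groups for Lat-M1, Lat-M2 and PA and 1 fit of 2 groups for Lat-M against PA, with Benjamini-Hochberg adjustment over all genes at 0.05. The fit was tested on simulated data. Errors are SE for fold changes and SD for TPM. The members, the 11 pathway lists and the 8 marker lists were chosen with earlier results of these data known. All members are named, and up to 4 called genes with the smallest p of a pathway list; some genes are not reported here. Last library numbers did not pair the libraries (correlations -0.082 to 0.0312). Alternatives were a pseudocount of 0.1, no filter, a minimum mean of 5 TPM, 2-fold changes, scaling by the median ratio, leaving out 4 structural RNAs, leaving out each library, and replicate blocks. Upstream windows came from RefSeq (GRCh38.p14), and gene overlaps and GC content from GENCODE v29.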

Additional observations from a re-analysis of the deposited data

Results flagged for a closer look

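Lat-M2 and Lat-M1 differed from each other in 22 of the 31 tested members (limma, adjusted p under 0.05). Of all genes tested, 16.0% were higher in Lat-M2 and 20.1% lower. The difference, as Lat-M2 minus Lat-M1 on the log2 scale, was 1.86 for ACAA2, 1.62 for CPT1A, 1.25 for SLC25A20, 1.10 for ETFB, 0.89 for ACADVL, 0.82 for DECR2, 0.78 for ACADM, 0.77 for ACAA1, 0.66 for CPT2, 0.65 for ACAD10 and 0.64 for CRAT. It was 0.58 for ACAT1, 0.57 for ETFDH, 0.50 for EHHADH, 0.49 for ACAD8, 0.47 for DECR1, 0.41 for HADH and 0.31 for CROT. It was -1.75 for ACOX3, -1.05 for ECI2, -0.27 for ETFA and -0.22 for ECHS1. The groups of 2 and 3 libraries are too small for a test of single outlying libraries.

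The same test separated the groups for 18 of the 21 other pathway genes named. These genes were named because they were among those called with the smallest p in these data, partly in this same comparison. The count is therefore largely set by that choice, and nothing is read from it. Of all genes tested, 16.0% were higher and 20.1% lower in Lat-M2 against Lat-M1. Lat-M2 minus Lat-M1 was 3.34 for PPARGC1A, 2.88 for PLIN2, 1.96 for AMACR, 1.23 for SLC27A2, 0.78 for PRKAA2, 0.74 for PPARG, 0.68 for BDH2, 0.59 for ABCD3, 0.57 for ECSIT, 0.56 for MGLL, 0.50 for AGPS, 0.47 for HACL1 and 0.37 for TMEM126B. It was -2.67 for PPARD, -2.19 for OXCT1, -0.83 for PRKAB2, -0.44 for CPT1B and -0.42 for NDUFAF1.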

How the results depend on the processing

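No member called on TPM changed sign under any alternative. After scaling by the median ratio, 3 differences near 0 that had not passed the test turned negative and passed it: HADHA and SCP2 in Lat-M1 against PA (-0.12 and -0.17) and ACAT1 in Lat-M2 against PA (-0.13). HADHA and SCP2 did so too without the structural RNAs (-0.15 and -0.19), and SCP2 with the replicate block and scaling (-0.18). With at least 2-fold changes required, 1 member was higher and 2 lower in Lat-M1 against PA, 1 and 0 in Lat-M2 against PA, and 4 and 2 in Lat-M2 against Lat-M1. Of the 16724 genes tested, 797 were then higher and 460 lower, 174 and 75, and 575 and 548, in the same order. For Lat-M2 against PA (6 higher, 1 lower), there were 2 and 7 after scaling by the median ratio, 2 and 0 with no filter, 5 and 5 without the structural RNAs, 4 and 0 without the trend and robust options, and 2 lower with a minimum mean of 5 TPM. Over all genes, 2119 were higher and 375 lower, and after scaling 1249 and 1407. With no filter 1250 and 279 of 32367 genes were called. Without the structural RNAs there were 1520 and 881, and without the trend and robust options 1606 and 344. With a minimum mean of 5 TPM, 344 of 11444 genes were lower. Fewer or more genes tested alter the adjustment, and otherwise the cause was not tested. Leaving out 1 library gave 9 to 15 lower in Lat-M1 against PA, 1 to 8 higher and 0 to 1 lower in Lat-M2 against PA, 2 to 7 lower in Lat-M2 against Lat-M1 (2 with the Lat-M libraries alone), and 0 to 3 higher in Lat-M against PA. Averaging both pairs in the fit of 3 groups, which leaves the spread between pairs out of the error, called 6 higher and 8 lower in Lat-M against PA. Of all genes tested it called 5040 higher and 1066 lower. Counts of all genes tested moved with the library left out too. Between 14 and 1740 were higher in Lat-M against PA, beside 420 with all libraries. Without 1 PA library, 891 to 1058 were higher in Lat-M2 against PA, beside 2119. In Lat-M1 against PA 1531 to 1721 were then lower, beside 1941, and in Lat-M2 against Lat-M1 2977 to 3286, beside 3354. Nothing about the members alone is read from their ranges. With 1 library left in a group, it is assumed to vary like the others. Pooled spread means that leaving out a Lat-M1 library also moves calls of Lat-M2 against PA.

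The last numbers only name the libraries. With them as a replicate block, 4 members were higher and 12 lower in Lat-M1 against PA (4 and 18 scaled), 1 and 0 in Lat-M2 against PA (1 and 3 scaled), 17 and 2 in Lat-M2 against Lat-M1 (18 and 5 scaled) and 0 and 0 in Lat-M against PA by limma (2 at an unadjusted p under 0.05, and 1 scaled). Of the 16724 genes tested there were, in the same order, 4515 and 1393 (3158 and 3041 scaled), and 755 and 188 (284 and 402 scaled). The last 2 comparisons had 2105 and 2690 (3021 and 3227 scaled), and 0 and 0 on either scale (2060 at an unadjusted p under 0.05, and 1384 scaled).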
